A study of Mus musculus with 3 samples.

Results

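The 9 genes described here encode transcription factors of pancreatic ducts and other epithelia: Ehf, Elf3, Grhl2, Sox9, Onecut1, Onecut2, Hhex, Prox1 and Glis3. They were chosen by symbol, with earlier results of these arrays known, so their differences between the ductal arrays are given as a description. All 9 had 1 single-gene probe set each, out of 19938 genes with such a probe set.

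The series holds 3 arrays, 1 for each group of sorted mouse pancreatic cells on a C57BL/6 background. Beta cells came from 3 pooled, untreated mice with the genotype Fbw7 +/+; MIP-GFP, in which beta cells carry a green fluorescent protein. Wild-type ductal cells came from 6 pooled mice that were Fbw7 +/+, and Fbw7-deleted ductal cells from 6 pooled mice that were Fbw7 F/F, both alleles being floxed. All ductal mice carried Ck19-CreERT, a Cre recombinase driven by the keratin 19 promoter and turned on by tamoxifen, and R26-LSL-YFP, a yellow fluorescent reporter that Cre switches on. They were given tamoxifen on 5 days and sampled 7 days after the last dose; all mice were over 6 weeks old. Cell type, reporter and tamoxifen all differ between the beta cell array and the ductal ones, and cannot be told apart. Fbw7 (gene Fbxw7) is the substrate-binding part of a ubiquitin ligase.

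Duct identity in the pancreas is held by a small circuit of factors laid down in the embryo. Sox9, Onecut1, Hhex and Prox1 mark progenitors of the embryonic pancreas, and several of them stay on in adult ducts, while mature acinar cells carry little of them. Ehf, Elf3 and Grhl2 belong to a wider epithelial programme that also runs in gut, lung and skin, where Grhl2 sustains adhesion genes such as Cdh1.

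The promoter windows of Prox1, Hhex, Glis3 and Onecut1, which all read at least 2-fold higher in the deleted than the wild-type ductal array, are shown because they share a feature that the choice of genes did not use, a high density of CpG pairs, seen once the windows had been read. The promoter source held no window for Ehf, the fifth factor that far apart, or for Sox9 and Grhl2, and Onecut2 was left out. Whether these factors share the feature was not examined. Prox1 had a second annotated start with fewer CpG pairs, described below but not printed. Any link of the feature to the differences between the ductal arrays was not tested. Each line gives the 250 bases before an annotated start (build GRCm38.p6, 5′ to 3′ on the gene's strand), with every CpG pair in capitals.

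Prox1, chr1:190170828-190171077, minus strand: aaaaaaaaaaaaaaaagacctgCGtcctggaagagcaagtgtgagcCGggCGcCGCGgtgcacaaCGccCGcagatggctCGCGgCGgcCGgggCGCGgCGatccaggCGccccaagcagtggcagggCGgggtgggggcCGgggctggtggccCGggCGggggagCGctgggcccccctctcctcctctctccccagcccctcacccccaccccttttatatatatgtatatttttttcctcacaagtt

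Hhex, chr19:37434591-37434840, plus strand: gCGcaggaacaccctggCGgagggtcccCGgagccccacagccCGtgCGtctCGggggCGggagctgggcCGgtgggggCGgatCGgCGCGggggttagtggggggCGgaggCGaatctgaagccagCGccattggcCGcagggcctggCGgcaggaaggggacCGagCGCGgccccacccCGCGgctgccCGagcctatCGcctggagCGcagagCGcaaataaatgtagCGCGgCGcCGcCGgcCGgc

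Glis3, chr19:28680078-28680327, minus strand: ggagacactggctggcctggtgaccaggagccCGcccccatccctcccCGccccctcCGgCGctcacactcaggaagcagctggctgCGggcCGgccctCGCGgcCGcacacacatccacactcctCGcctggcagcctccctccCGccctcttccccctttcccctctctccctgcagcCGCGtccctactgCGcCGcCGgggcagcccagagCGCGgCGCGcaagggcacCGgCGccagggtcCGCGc

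Onecut1, chr9:74861671-74861920, plus strand: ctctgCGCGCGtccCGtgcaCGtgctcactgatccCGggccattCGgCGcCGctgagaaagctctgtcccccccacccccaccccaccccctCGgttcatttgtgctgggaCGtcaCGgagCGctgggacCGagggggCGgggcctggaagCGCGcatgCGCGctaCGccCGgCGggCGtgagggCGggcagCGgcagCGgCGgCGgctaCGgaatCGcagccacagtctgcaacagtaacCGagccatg

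The Hhex window held 32 CpG pairs and 76% G or C, the Onecut1 window 31 and 71.6%, the Glis3 window 24 and 75.6%, and the Prox1 window 20 and 64.8%. Over 32851 promoter windows of the same length, 1 for each annotated start, the medians were 6 CpG pairs and 52.4%. The share of these windows with fewer CpG pairs was 95.4% for Hhex, 94.8% for Onecut1, 88.0% for Glis3 and 82.1% for Prox1, so such a density is not rare. The second annotated start of Prox1 had 11 CpG pairs and 56% G or C, and 64.4% of windows had fewer CpG pairs. The window of Elf3, an ETS factor whose transcript read low on all arrays, had 8 CpG pairs and 57.2%, near the middle of all windows. Short motifs, most of them of the factors' own families, were searched on both strands of these 6 windows of 5 genes. The ETS letters CGGAAG matched 0 of 6, against 13.6% of all windows, and the ONECUT letters ATTGAT or ATCGAT matched 0 of 6, against 7.40%. The SOX letters ACAATG or ACAAAG matched 1 of 6, the second Prox1 start, against 25.2%. The grainyhead letters AACCGG or AACTGG matched 1 of 6, the Elf3 window, against 17.3%, and the forkhead letters GTAAACA matched 0 of 6, against 3.17%. The letters TATAAA matched 1 of 6, the Prox1 window printed above, on the opposite strand from base -34 to -29 before the start, against 12.4%.

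Levels below are log2 intensities of 1 array each, which leaves every difference without a replicate check or a test. An array's level floor is the median of its single-gene probe sets, log2 5.30 for beta cells and 5.23 and 5.24 for the wild-type and the deleted ductal array. A gene entered a comparison of 2 arrays if the higher of its 2 levels was above that array's floor, and 2 arrays were called apart from a 2-fold difference on. Where the lower level lay below its floor, the fold was taken against the floor and is written with "at least". Different probe sets differ in how brightly they bind, so levels are compared between arrays within a gene and not between genes.

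Both ductal arrays carried keratin 19 (9.13 and 9.53) and also all 7 mesothelial markers measured, at levels from 9.44 to 10.73, while the duct chloride channel gene Cftr read 4.95 and 5.13, below the floor. The beta cell array carried Ins2 (11.04) and the islet amyloid gene Iapp (9.86), but also the delta cell gene Sst (11.04) and the acinar gene Cpa1 (12.30), while the beta cell genes Pdx1 (5.14) and G6pc2 (4.83) were below its floor. Exactly equal values in both ductal arrays were found for 59.1% of genes, but for 0 of the 9 factors. The targeted gene Fbxw7 read 4.95 in all 3 arrays on 1 probe set and, on the other, 6.32 for the wild-type and 5.71 for the deleted ductal array. The sources used here do not place these probes relative to the floxed exons, so they do not check the deletion.

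In the Fbw7-deleted ductal array, 5 of the 9 factors were at least 2-fold higher than in the wild-type one, and 0 were 2-fold lower. The 5 were Prox1, Ehf, Hhex, Onecut1 and Glis3. Below, "with Fbw7" and "without" it name the wild-type and the deleted ductal array by genotype only. Sox9 and Onecut2 were higher by less than 2-fold, and Grhl2 and Elf3 stayed below the floor on every array. Over all 10035 genes above the floor, 3.25% were at least 2-fold apart; 1.43% were higher and 1.81% lower. The choice of the factors used this contrast, so nothing is read from that difference in share. The median difference over all 9 factors was log2 1.55, beside 0 over all genes.

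**Figure D1:**
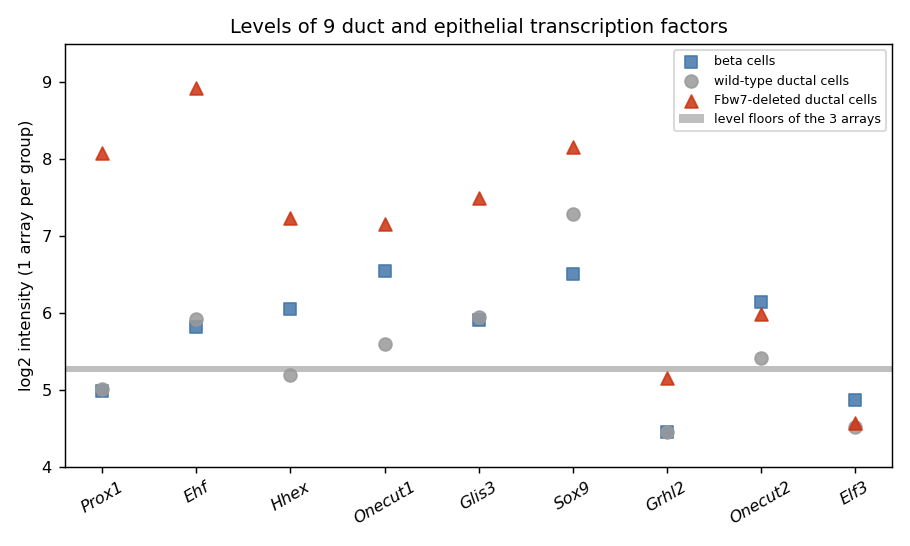
Log2 intensity (vertical axis) of each factor in beta cells (squares), wild-type ductal cells (circles) and Fbw7-deleted ductal cells (triangles), 1 array each, with the level floors as a grey band. Deleted ductal cells were highest for 7 of 9 factors, Grhl2 below the floor among them, and beta cells for Onecut2 and Elf3; levels are to be compared within a gene.

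Among the epithelial factors, Ehf stood far apart from its relatives. Ehf, an ETS factor of epithelial cells, read 5.81 in beta cells and, in ductal cells, 5.93 with Fbw7 and 8.92 without it. Beta and wild-type ductal levels were close to each other, and the deleted ductal array was 7.97-fold above the wild-type one, rank 6 from the top among the measured differences of 10035 genes. Elf3, the close relative of Ehf, read 4.87, 4.52 and 4.57 in the same order, below the floor throughout. Grhl2, a grainyhead factor, read exactly the same value, 4.45, for beta and wild-type ductal cells but 5.16 for the deleted array. Its difference of 0.71 between the ductal arrays lay wholly below the floor, so no fold is given. Elf5, another epithelial ETS gene that lies close to Ehf on the chromosome, read 4.90, 4.84 and 4.85, also below the floor.

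The homeobox factors of the early pancreas were higher in deleted ductal cells too, with different levels in beta cells. Prox1, a homeodomain factor of pancreatic progenitors, lymphatic vessels and liver, read 4.99 in beta cells and, in ductal cells, 5.01 with Fbw7 and 8.08 without it. Only the deleted array was above its floor, at least 7.19-fold higher than the wild-type one. Hhex, which acts in the foregut, in ducts and in somatostatin-producing delta cells, read 6.05, 5.20 and 7.24. Its wild-type ductal level was the lowest of the 3 and below the floor, and the deleted array was at least 4.02-fold above it. Onecut1, also called Hnf6, which acts upstream of Neurog3 and of duct development, read 6.54, 5.59 and 7.15. All of these were above the floor, in the order wild-type ductal, beta, deleted ductal, and the ductal arrays were 2.94-fold apart, rank 82. Onecut2, its paralog, read 6.14, 5.41 and 5.98. Wild-type ductal cells were again lowest, but beta cells were highest, and the ductal arrays were 1.48-fold apart.

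Sox9 and Glis3 were above the floor on every array. Sox9, the high-mobility-group factor that keeps progenitors and ducts, read 6.51 in beta cells and, in ductal cells, 7.29 with Fbw7 and 8.17 without it. The wild-type ductal array was 1.84-fold below the deleted one (rank 172) and, as deposited, 1.72-fold above beta cells; beta minus wild-type ductal cells, -0.78 as deposited, was -0.06 after quantile normalization and 0.0015 with the loess trend removed. Glis3, a zinc-finger factor of ducts and beta cells that acts on the insulin gene, read 5.91, 5.95 and 7.50. Beta and wild-type ductal cells were within 0.05 of each other on the log2 scale, and the ductal arrays were 2.92-fold apart, rank 84.

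**Figure D2:**
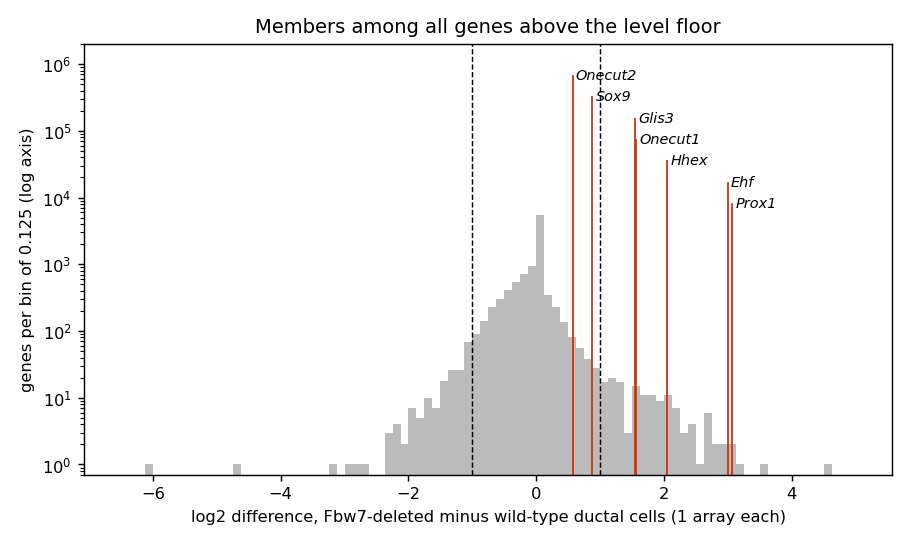
Histogram of the log2 difference between deleted and wild-type ductal cells (horizontal axis) for 10035 genes above the level floor, with the number of genes per bin on a log axis, dashed lines at 2-fold and red lines at the 7 factors that passed the floor. The factors lie between 0.57 and 3.07; the height of a red line carries no value.

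The same 5 factors stayed at least 2-fold higher when arrays were quantile-normalized, when each was centred on its median, when a loess trend on level was removed and when low levels were raised to the floor. Over these settings Ehf lay between 2.73 and 3.03 on the log2 scale, Prox1 between 2.76 and 3.08, Hhex between 1.82 and 2.05, Onecut1 between 1.39 and 1.56 and Glis3 between 1.42 and 1.56. Sox9 lay between 0.84 and 0.93 and Onecut2 between 0.50 and 0.57, under 2-fold in each. Each of the 5 had 1 probe set, so no further probe set could be set beside it.

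Beta cells and wild-type ductal cells differed by less than 2-fold in these genes as deposited. Of the 9 factors, 6 passed the floor in this pair of arrays, and 0 were 2-fold apart. Among all 11139 genes that passed, 32.2% were 2-fold apart, with 6.37% higher and 25.8% lower in beta cells. Onecut1 and Onecut2 were higher in beta cells, by log2 0.95 and 0.73, and Hhex by at least 0.82 against the floor (0.85 as measured). Sox9 was lower in beta cells by 0.78 on that scale, reaching -0.99 with centring, and Ehf and Glis3 were at -0.12 and -0.05, turning to 0.08 and 0.19 after quantile normalization. After quantile normalization Onecut1 was at 1.41 and Hhex at 1.04, past 2-fold. The median over all genes, -0.11 as deposited, moved by 0.19 with quantile normalization, by -0.20 with centring and by 0.13 with the loess trend, so differences of this size hold only relative to such shifts.

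Compared with the deleted ductal array, beta cells read at least 2-fold lower for 5 factors and higher for 0. Of 11095 genes, 28.1% were 2-fold apart, 23% lower and 5.13% higher in beta cells. It shares the beta cell array with the comparison just described and the deleted array with that of the ductal arrays. Ehf was 8.63-fold lower in beta cells and Prox1 at least 6.85-fold. Sox9 was 3.15-fold, Glis3 3.02-fold and Hhex 2.28-fold lower. Onecut1 was at -0.61 and Onecut2 at 0.16. Sox9 and Hhex were not 2-fold apart after quantile normalization (-0.98 and -0.78) or with the loess trend removed (-0.73 and -0.68). Onecut1 then turned to 0.02 and 0.03, and Onecut2 was at -0.01 with centring.

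**Figure D3:**
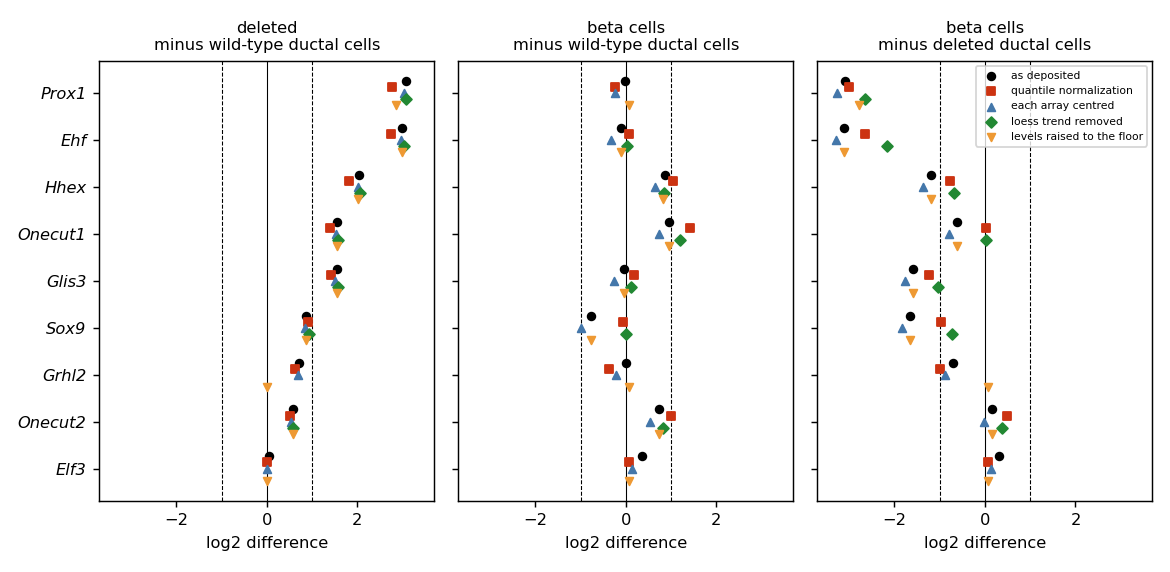
Log2 difference (horizontal axes) of each factor in 3 pairs of arrays as deposited and under 4 other settings, with dashed lines at 2-fold. In the left panel each factor stays on its side of the 2-fold line, although Grhl2 goes from 0.71 to 0.0052 with levels raised to the floor; in the right panel Sox9 and Hhex cross the 2-fold line after quantile normalization and with the loess trend removed, and Elf3 and Grhl2 have no loess value because they lie below the floor.

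The deleted ductal array was the highest of the 3 for 6 of the 7 factors above the floor on any array, where this held for 9.25% of 11304 genes. It was at least 2-fold above both other arrays for 4 of them, Ehf, Prox1, Hhex and Glis3, and for 0.734% of genes. The choice of the factors used the contrast of the ductal arrays, so nothing is read from these differences in share either. Likeness of pattern was measured as the Euclidean distance over the 3 arrays, each gene centred on its own mean, which 3 arrays can rank only coarsely. Ehf and Prox1 were each other's nearest gene among 11304, at a distance of 0.069 in measured values, although Prox1 was above the floor in the deleted array alone. For both, the next were the nucleoside transporter Slc28a3 and the carboxylesterase Ces1d, at 0.40 and 0.49 from Ehf and at 0.35 and 0.55 from Prox1. Nearest to Glis3 were the tight-junction claudin Cldn7 (0.076), the glutathione peroxidase Gpx2 (0.12) and the epithelial serine protease St14 (0.13). Nearest to Hhex were the antimicrobial lectin Reg3g (0.067), Elapor1 (0.13) and the potassium channel Kcnk5 (0.16). Nearest to Onecut1 were the desmosomal cadherin Dsc2 (0.015), Rnu12 (0.096) and the dynein heavy chain Dnah7b (0.16). Gpx2, Reg3g, Kcnk5, Dsc2 and Dnah7b were, like Prox1, above the floor in the deleted array alone, so their distances rest in part on levels below it and give no firm order.

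The factors' chromosomal neighbours did not share their differences, with 1 exception. Of 18 genes next to them in the annotation that had a probe set, 12 were above the floor, with a median difference of 0 between the ductal arrays, and 1 was 2-fold apart. That was BC006965, a noncoding transcript beside Sox9, at 3.96 with and 5.67 without Fbw7 in ductal cells, which is 1.71 apart and came to 0.43 against the floor. Smyd2 beside Prox1 was at -0.07. Apip beside Ehf and Exoc6 beside Hhex had equal values in both ductal arrays, as did 59.1% of all genes. Kif11, a mitotic motor on the other side of Hhex, was at -0.70.

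Family relatives of the factors, listed by symbol, were close to equal between the ductal arrays. Of 13 measured, 7 were above the floor and 0 were 2-fold apart, from Elf1 at -0.12 to Glis2, a relative of Glis3, at 0.28. Their median was 0 over all 13. Of the 7, 4 had exactly equal values in both ductal arrays, as did 59.1% of all genes. The median over all genes above the floor was 0 too, so this closeness is not particular to the relatives. Of 17 other pancreatic and epithelial transcription factors measured, 11 were above the floor, and 1 was 2-fold apart. That was Nr5a2, a nuclear receptor of acinar cells and ducts, which read 6.21 in beta cells and, in ductal cells, 4.68 with Fbw7 and 7.37 without it. It was below the floor in wild-type cells, with a difference of 2.69 that came to 2.14 against the floor. The other end of that list was Gata4 at -0.32, and its median was 0.

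Some adhesion and splicing genes of epithelia are known targets of Grhl2. Of those measured here, the adhesion genes Cdh1, Epcam and Cldn7 were at least 2-fold higher in the deleted array. Grhl2 itself read 4.45 in the wild-type and 5.16 in the deleted ductal array, both below the floor. Its part in these differences was not tested. Of 14 measured, 11 were above the floor, these 3 were 2-fold higher and 0 were 2-fold lower, with a median of 0.51 over all 14. That median was 0.79 over the 11 above the floor, and 0.27 over these with levels raised to it. Rab25 and the splicing gene Esrp1 were at 0.79 and 0.80, but at 0.07 and 0.06 against the floor. The splicing gene Esrp2 had equal values in both ductal arrays, and Cldn4 was below the floor in both. Cdh1, the epithelial cadherin, read 6.92 in beta cells and, in ductal cells, 6.54 with Fbw7 and 9.17 without it. Epcam, an adhesion molecule of epithelia, read 5.42, 5.42 and 7.22, and Cldn7 read 5.97, 6.07 and 7.67. In each of these the deleted level stood above both others. Beta minus wild-type ductal cells was 0.38 for Cdh1 as deposited, but 1.13 after quantile normalization and 1.04 with the loess trend removed. Lsr, a protein of tricellular junctions, was lowest of the list at -0.15, and at 0.02 after quantile normalization. Of 7 factors of epithelial-mesenchymal transition, 6 were above the floor, 1 was 2-fold lower and 0 were 2-fold higher, with a median of -0.26 over all 7 and -0.44 over the 6. Prrx1, a mesenchymal homeobox factor, read 6.99 with Fbw7 and 5.05 without it in ductal cells, which was at -1.75 against the floor. Zeb1 and Zeb2, named here after their values were seen, were at -0.61 and -0.68, both under 2-fold. Twist1 was at -0.26 and Snai1 at -0.07, Snai2 had equal values in both ductal arrays, and Twist2 was below the floor in both.

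**Figure D4:**
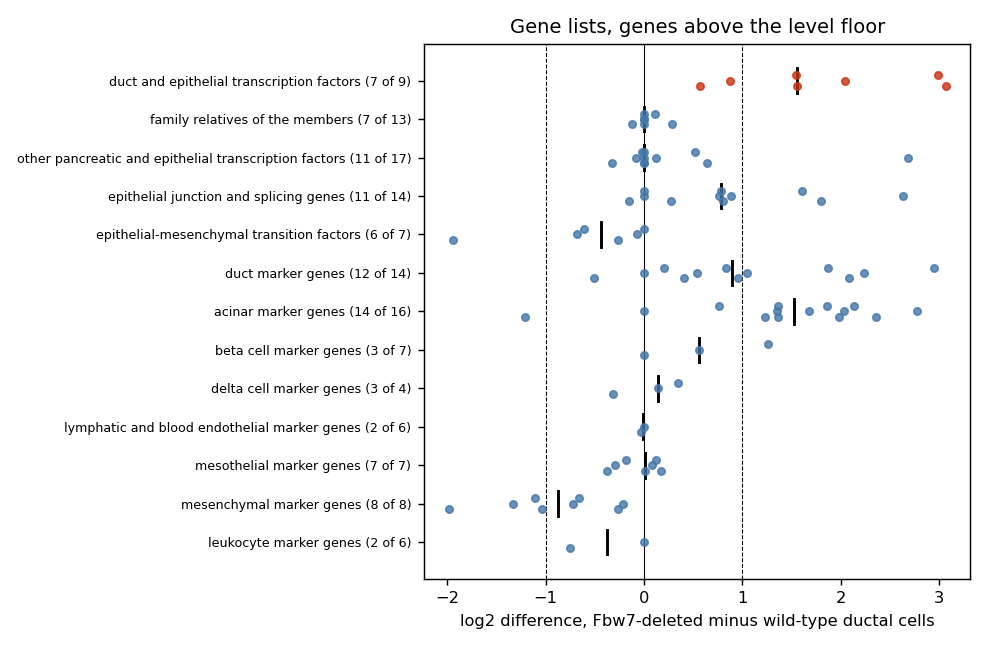
Log2 difference between deleted and wild-type ductal cells (horizontal axis) for genes above the level floor in each list, 1 point per gene, with a black bar at the median of those points and dashed lines at 2-fold; the numbers after each name give how many of the measured genes passed the floor. Acinar and duct points lie mostly to the right of 0, mesenchymal points all to the left, and mesothelial points close to 0.

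Acinar markers were mostly higher in the deleted ductal array too, and mesenchymal markers were lower. Of 16 acinar markers measured, 14 were above the floor in both ductal arrays, 11 were at least 2-fold higher in deleted cells and 1 was 2-fold lower. Their median was 1.36, and their summed linear intensity was 13683 for the wild-type and 34785 for the deleted ductal array. Spink1 (2.78), Pla2g1b (2.36), Gp2 (2.14) and Cela3b (2.04) led, and the protease Ctrc was at -1.21, or -0.96 after quantile normalization. The acinar factors Ptf1a and Rbpjl read below the floor in all 3 arrays, and Bhlha15 had the same level, 5.38, in all 3. The summed acinar intensity was highest in the beta cell array, at 48774, so these factors' probe sets did not follow it. Nr5a2, described above, was higher in the deleted ductal array, by 2.69 or by 2.14 against the floor. Of 8 mesenchymal markers, all were lower in deleted cells, 4 of them at least 2-fold, or 3 against the floor, led by the growth factor receptor gene Pdgfra (-1.99) and the collagen gene Col1a2 (-1.33). Their median was -0.88, and their sum fell from 9929 to 6320. Col1a1 was at -1.11 and Pdgfrb at -1.04, or -0.85 against the floor, and both came under 2-fold after quantile normalization, at -0.92 and -0.91. Dcn was the highest at -0.22. The part of these shifts in the factors' differences was not tested, and in sorted bulk samples fewer cells of a type and less RNA per cell cannot be told apart.

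Duct markers were mostly higher as well, with 5 of 14 measured at least 2-fold higher, 0 lower and a median of 0.70. Ambp (2.95), the mucin Muc1 (2.24), the ciliary protein gene Pkhd1 (2.09) and Prom1 (1.87, or 1.55 against the floor) led them, and the water channel gene Aqp1 was at -0.51. Their sum was 3872 for the wild-type and 6715 for the deleted array. The part of this shift in the factors' differences was not tested either. A larger share of duct cells and more RNA per duct cell cannot be told apart here. The 7 mesothelial markers, at 9244 and 9023, had a median of 0.01 and 0 were 2-fold apart, from Lrrn4 at -0.37 to Upk1b at 0.18.

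Many, but not all, markers of other cells in which these factors are known were below the floor in both ductal arrays. Of the lymphatic and blood endothelial markers, Lyve1, Mmrn1, Pecam1 and Cdh5 were below the floor in both, Flt4 had the same level (5.34), and Pdpn, which mesothelium also makes, read 10.17 and 10.14. The summed linear intensity of the 6 genes measured, most of it Pdpn, was 1280 for the wild-type and 1263 for the deleted array. For Hhex, the delta cell hormone gene Sst read 5.06 and 5.40 against 11.04 in beta cells. Ghsr, also a delta cell marker, read 5.16 and 5.31. Of the ductal arrays, Sst and Ghsr were above the floor in the deleted one only. Rbp4, another delta cell marker, was above it in both, at 5.96 and 5.64. The sum of the 4 delta cell markers was 140.5 and 140.9, with these opposite differences in it. The part of these markers in the differences of Prox1 and Hhex was not tested. Of 7 beta cell markers, 4 were below the floor in both ductal arrays, and Ins2, an insulin gene, read 5.31 and 5.87 against 11.04 in beta cells. The beta cell factor Mafa had the same level, 5.49, in all 3 arrays. The glucose transporter gene Slc2a2 read 5.64 and 6.90 and was the 1 of them at least 2-fold higher in deleted cells (1.26); the list's sum was 199.4 and 297.0. Of 6 leukocyte markers, 4 were below the floor in both ductal arrays, Csf1r had equal values, Cd74 read 8.53 and 7.77, a difference of -0.75, and the sum was 490.0 and 344.1.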

How the data were processed

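Each of the 3 arrays measured RNA (18 ng) of 30000 sorted cells, amplified with a NuGEN kit and labelled with biotin, per the labels' protocols. The deposited values are log2 intensities per probe set, made by the authors with RMA per the submitters' processing notes. The sources used here give neither the version of RMA nor the set of arrays it was run on. The arrays do not share 1 distribution (SD 1.57 in beta, 2.02 in wild-type ductal, 1.97 in deleted ductal cells). The factors and lists were chosen with earlier results of these data known. Of 35556 probe sets, 21789 had 1 gene in the platform annotation, and 21698 of these matched a RefSeq gene (GRCm38.p6) by gene ID. The probe set with the highest mean was used per gene. Named genes were all 9 factors; in each list the highest, the lowest and up to 4 at least 2-fold apart; the 3 nearest patterns of each factor 2-fold apart; and Fbxw7. Marker genes that bear on a factor's other cell types, chromosomal neighbours and further genes of some lists were named besides. With 1 array per group, the number of arrays limits the precision, and no p-value is given. Alternatives were quantile normalization, centring, a loess trend (span 0.3), the mean of probe sets, other floors and thresholds of 1.5-fold and 4-fold. The 2-fold call was tested on simulated arrays with added shifts, and quantile normalization was checked for giving the arrays a common spread. The other steps were not tested in this way. Software was numpy 2.4.6, statsmodels 0.14.6, pandas 2.3.3 and matplotlib 3.10.9 under Python 3.11.15. Promoter sequences are those of RefSeq.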

Additional observations from a re-analysis of the deposited data

How the results depend on the processing

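No paired analysis was possible because each group is 1 array, and for the same reason no replicate could be left out. Between the ductal arrays, all 43 differences of single factors under the alternative scalings, probe set rule and floors stayed on the same side of 2-fold as deposited. These were not 43 separate checks. Each factor had 1 probe set, so the probe set rule could not move it, and centring shifted all genes alike, by -0.03. Raising levels to the floor changed only factors with a level below it. The count of factors higher was 3 at a 4-fold threshold. The share of all genes 2-fold apart was 1.69% without a floor and 5.26% with it at the 75th percentile, against 3.25%. Between beta and wild-type ductal cells, the count of factors higher was 2 after quantile normalization, 1 with the loess trend and 3 at 1.5-fold, where 1 was lower. Between beta and deleted ductal cells, the count lower was 3 after quantile normalization, 3 with the loess trend and 2 at 4-fold, and the median fell under 2-fold, to -0.98 and -0.73. The share of higher genes among all those 2-fold apart moved with quantile normalization from 44.2% to 60.1% between the ductal arrays, from 19.8% to 37.2% for beta against wild-type and from 18.2% to 35.7% for beta against deleted ductal cells; with the loess trend the last pair were 33.6% and 29.7%. Factors below the floor have no loess value.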
